A study of Mus musculus with 8 samples.

Results

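The genes described here mostly encode nuclear subunits of the mitochondrial respiratory chain and of ATP synthase. They were taken by symbol: Nduf names with a letter a, b, c, s or v and a number (complex I), Sdha to Sdhd (complex II), names starting with Uqcr (complex III), names starting with Cox4 to Cox8 (complex IV) and names starting with Atp5 (complex V). The rule found 83 genes among the 24454 in the table, 36 in complex I, 4 in complex II, 8 in complex III, 18 in complex IV and 17 in complex V. Ndufa4 stands with complex I by its name, although its protein is a subunit of complex IV. Atp5s and Atp5sl stand with complex V by older symbols, and Cyc1 of complex III lies outside the rule. Of the 83, 77 had enough counts to be tested: 35, 4, 8, 13 and 17 by complex.

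The RNA came from yolk sacs of mouse embryos at stage E11.5 that carry GFP at the miR144/451 locus (miR144/451+/GFP, on C57BL/6), so that GFP marks cells in which this erythroid microRNA locus is active, and every group carries the allele. Cells were stained for VE-Cadherin, the adhesion molecule of endothelial junctions, and sorted into 3 gates. The endothelial group is VE-Cadherin+GFP- (3 pools of 25 cells, replicates 1 to 3), the erythroid group is VE-Cadherin-GFP+ (3 pools of 25 cells, replicates 4 to 6) and the double positive group is VE-Cadherin+GFP+ (2 pools of 24 cells, replicates 7 and 8). Each pool was amplified with Smart-seq2, a full-length cDNA method without molecular identifiers, so reads are not independent molecules and intervals cover counting error only. The labels do not say whether pools came from separate embryos, so p-values measure the spread between pools, which may be technical.

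Complex I takes electrons from NADH and complex II, the succinate dehydrogenase of the citric acid cycle, takes them from succinate. Complex III passes them to cytochrome c and complex IV, cytochrome c oxidase, to oxygen. Complex V uses the proton gradient to make ATP. Several complex IV subunits and subunit c of complex V exist as gene pairs or trios, of which some members are known from heart, muscle or testis. Primitive red cells of the yolk sac still hold mitochondria at this stage, and haem synthesis takes place partly inside them.

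Libraries held 3723128 to 7618444 counts. Globin genes took 54.5 to 56.5% of the erythroid counts, 8.85 and 14.0% of the double positive counts and at most 0.00404% of the endothelial counts. Levels below are in CPM, counts scaled to a common library size after TMM adjustment, a method that assumes most genes do not differ. All 10 endothelial markers had counts in the endothelial and double positive libraries and none in the erythroid libraries. They summed to 3327 to 4719 CPM in the endothelial and to 449 and 602 CPM in the double positive libraries. All 10 erythroid markers had counts in the erythroid and double positive libraries, and 4 of the 10 had counts in each endothelial library. They summed to 953333 to 1015257 CPM in the erythroid, 79019 and 137914 in the double positive and 15.3 to 24.7 in the endothelial libraries. TMM factors of the erythroid libraries were 0.563 to 0.580, so CPM there are larger than by library size alone. The 10 visceral endoderm markers summed to 81438 and 83592 CPM in the double positive libraries and to 9.78 to 36.3 CPM in the other 6. Macrophage markers (9 listed) summed to 1084 to 2547 CPM in the endothelial, 103 and 143 CPM in the double positive and 0 in the erythroid libraries. Megakaryocyte markers (5 listed) summed to 501 to 935 CPM in the endothelial libraries and 4.97 to 54.6 CPM in the other 5. Mesenchyme markers (5 listed) summed to 183 and 149 CPM in the double positive libraries and at most 2.12 CPM in the other 6. The part of these other cell types in the results below was not tested, and in pools a smaller number of cells of one type cannot be told apart from less RNA per cell.

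Respiratory chain genes made up 1.63 to 1.84% of all endothelial counts, 1.08 to 1.09% of all erythroid counts and 2.61 and 2.66% of all double positive counts. Leaving out globin counts, the order of the first 2 groups turned: 1.63 to 1.85% in the endothelial pools, 2.38 to 2.50% in the erythroid pools and 2.86 and 3.09% in the double positive pools. The groups did not overlap on either denominator. The direction between erythroid and endothelial cells is therefore set by what the counts are divided by.

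In the fit across all genes (edgeR quasi-likelihood test, adjusted p under 0.05), 55 of the 77 genes were higher and 0 lower when erythroid were set against endothelial cells under TMM, beside 14.4% higher and 26.6% lower of all 12136 genes tested. Their median log2 difference was 0.81, against -0.36 over all genes. Scaled by library size alone, 2 were higher and 58 lower, beside 3.46% and 59.9% of all genes, and the medians were -0.74 and -1.90. The distance between the 2 medians was 1.17 under either scaling. It is nearly fixed in advance, since a change of scaling moves all genes by about the same amount. The first quartile under TMM was -3.31 over all genes and 0.51 for the 77. Under TMM, double positive set against endothelial cells gave 69 of 77 higher and 0 lower (14.6% and 6.92% of all genes), with medians of 1.25 and 0.06. Against erythroid cells, 31 were higher and 3 lower in double positive cells (31.5% and 10.6% of all genes), with medians of 0.37 and 0.71. By library size alone these counts were 40 and 1 (9.21% and 15.7% of all genes), and 71 and 1 (47.5% and 3.9% of all genes). Without double positive replicate 8, 17 in place of 31 were higher in double positive than in erythroid cells under TMM.

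**Figure D1:**
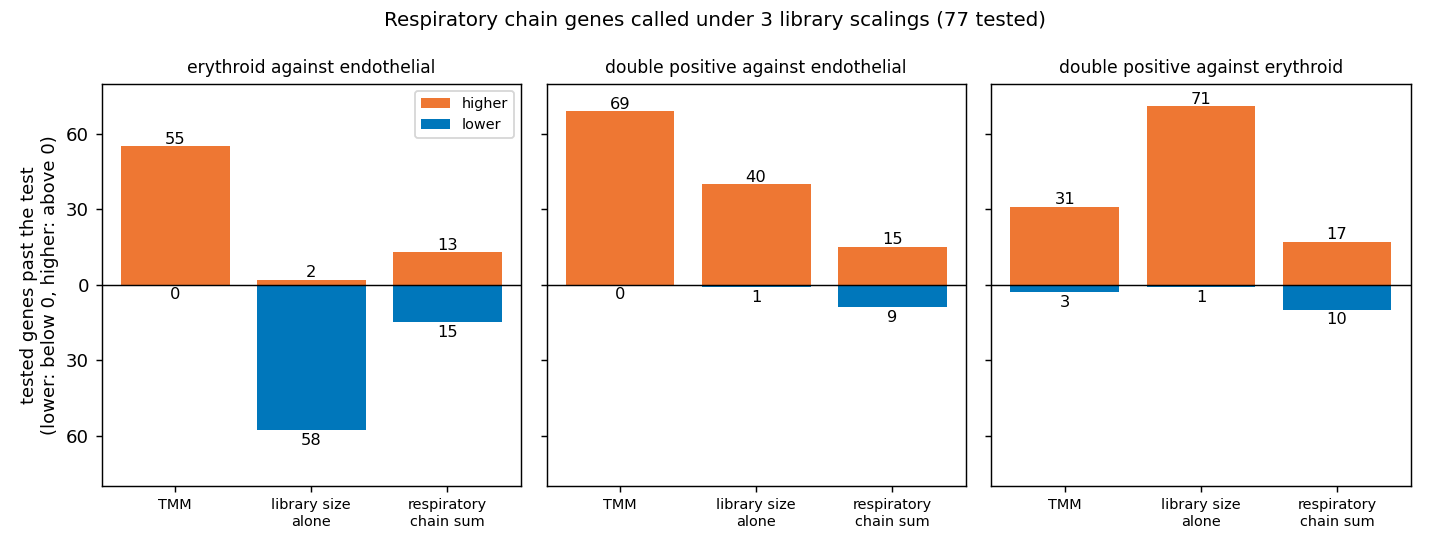
Number of the 77 tested respiratory chain genes past the test, higher above and lower below the zero line, in 3 comparisons (panels) under 3 ways of scaling libraries (bars). In erythroid against endothelial cells the 55 genes higher under TMM become 58 lower by library size alone.

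Both double positive libraries lay above the other 6 for 42 of the 77 genes in TMM-scaled CPM (21.5% of all genes) and for 60 by share of all counts (16.6% of all genes). Replicates were close for these genes: the median coefficient of variation was 11.8% in the endothelial pools, 9.08% in the erythroid pools and 9.93% in the double positive pools, against 34.8%, 40.3% and 17.3% over all tested genes. The genes compared were not matched for level, and the double positive values rest on 2 pools. To ask which members moved against the rest of the chain, the libraries were also scaled to their summed respiratory chain counts, a choice made after the data had been seen. Relative to that sum, 13 genes passed as higher and 15 as lower when erythroid were set against endothelial cells (6.29% and 41.5% of all genes). In double positive cells 15 were higher and 9 lower than in endothelial cells (7.98% and 31.9%), and 17 higher and 10 lower than in erythroid cells (27.6% and 15.4%). The double positive counts rest on both pools: without replicate 7 or without replicate 8, 2 were higher and 1 or 2 lower than in endothelial cells, and 6 or 8 higher and 5 lower than in erythroid cells.

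**Figure D2:**
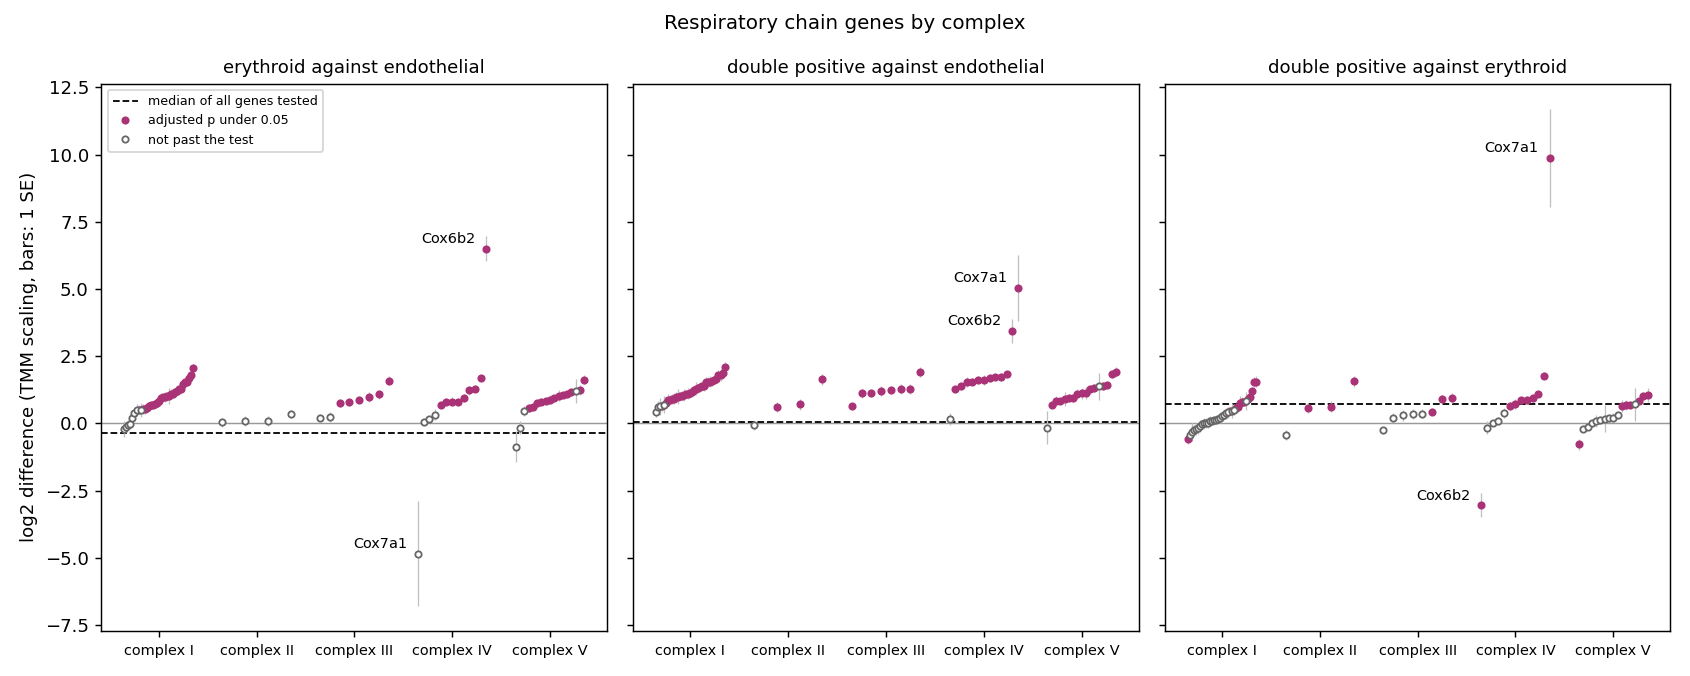
Log2 difference of each tested gene under TMM scaling (y axis, bars 1 SE) by complex (x axis) in the 3 comparisons. Filled points passed the edgeR test and the dashed line is the median of all genes tested. Complex II sits near 0 in erythroid against endothelial cells, and Cox6b2 and Cox7a1 of complex IV lie far from the other members.

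In complex I, 27 of 35 tested genes were higher when erythroid were set against endothelial cells under TMM and 0 lower (14.4% and 26.6% of all genes). The median log2 difference was 0.84 (-0.71 by library size alone). In double positive cells 31 were higher than in endothelial cells (14.6% of all genes), with a median of 1.14. Against erythroid cells, 11 were higher and 1 lower (31.5% and 10.6% of all genes). The median there was 0.28, against 0.71 over all genes. The share of complex I in the respiratory chain counts was 31.29 to 31.66% in the endothelial pools, 30.44 to 33.24% in the erythroid pools and 31.67 and 32.12% in the double positive pools, so the erythroid range covered both other groups.

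Core subunits of complex I carry its redox centres. Ndufv1, the NADH-binding flavoprotein subunit, was at 69.0, 59.96 and 66.6 CPM in the endothelial pools, 188, 159 and 188 in the erythroid pools and 117 and 123 in the double positive pools. Its highest values were erythroid, and the 3 groups did not overlap. For Ndufv1 the edgeR test gave a log2 difference of -0.57, SE 0.17 (adjusted p = 0.027) between double positive and erythroid cells under TMM, and 0.34 by library size alone. Without erythroid replicate 4 or 6, or without either double positive replicate, that TMM call did not pass. Ndufs1, the large iron-sulphur subunit, had 73.4, 94.5 and 41.0 CPM in endothelial and 176, 128 and 123 CPM in erythroid libraries. Ndufs7, which holds the last iron-sulphur cluster, had 76.8, 78.0 and 58.5, against 144, 169 and 148. Both were higher in erythroid cells under TMM (0.021 and 0.0011, edgeR adjusted p) and had negative differences by library size alone. Without endothelial replicate 1 or erythroid replicate 4 the call for Ndufs1 did not pass.

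Accessory subunits surround the core. Ndufa6 was at 49.2, 63.1 and 54.0 CPM in the endothelial pools, 204, 249 and 236 in the erythroid pools and 188 and 198 in the double positive pools. The log2 difference of Ndufa6 was 2.05, SE 0.16 (edgeR adjusted p = 2.1e-05) between erythroid and endothelial cells, and 1.20 (SE 0.16, edgeR adjusted p = 3.7e-04) relative to the chain. Ndufb9, Ndufs6 and Ndufb2 also passed in erythroid cells, with TMM log2 differences of 1.54, 1.71 and 1.81, and each was higher relative to the chain. Each shares a near-identical stretch with another gene, over 28.7%, 37.9% and 3.3% of the transcript, and each overlaps an exon of another gene. The difference of Ndufb9 was negative by library size alone. Ndufb5, in the membrane arm, went the other way: 98.9, 78.2 and 79.2 CPM in the endothelial pools, 85.8, 65.7 and 82.8 in the erythroid pools and 214 and 239.9 in the double positive pools. The endothelial and erythroid values overlapped, and the double positive values were the highest. Ndufb5 differed by -0.98 on the log2 scale, SE 0.18 (edgeR adjusted p = 0.0025) in erythroid against endothelial cells relative to the chain, and by 1.16 (SE 0.20, edgeR adjusted p = 0.0022) in double positive against erythroid cells on the same scale. Ndufa4, which belongs to complex IV by role, also had its highest values in the double positive libraries, with 218, 211 and 208 CPM in the endothelial pools, 256, 277 and 198 in the erythroid pools and 531 and 590.4 in the double positive pools. Its endothelial and erythroid values overlapped. Relative to the chain it was lower in erythroid than in endothelial cells (0.0055, edgeR adjusted p).

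Complex II stood apart from the other 4 in erythroid cells. None of its 4 genes passed the TMM test against endothelial cells, beside 14.4% higher and 26.6% lower of all genes. Their median log2 difference was 0.09 (-0.36 over all genes), whereas the medians of the other complexes ran from 0.81 to 0.88. The sign of this small TMM difference is not stable. Sdhb, Sdhc and Sdhd turned negative under DESeq2, under RLE factors and when only the 2 populations were fitted, and Sdhc also with globin genes removed. All 4 genes were lower by library size alone, with a median of -1.46. Over all genes 59.9% were lower on that scaling, with a median of -1.90. Complex II held 5.84 to 6.97% of the respiratory chain counts in the endothelial pools, 3.72 to 4.55% in the erythroid pools and 4.52 and 4.76% in the double positive pools. The endothelial libraries thus lay above the other 5.

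Sdha, the flavoprotein that oxidises succinate, was at 264, 276 and 199.8 CPM in the endothelial pools, 305, 305 and 337 in the erythroid pools and 246 and 224 in the double positive pools. For Sdha the edgeR test gave a log2 difference of -0.49, SE 0.15 (adjusted p = 0.023) in erythroid against endothelial cells relative to the chain, and it did not pass without endothelial replicate 1 or 2 or erythroid replicate 4 or 5. The log2 difference of Sdha was -1.28, SE 0.17 (edgeR adjusted p = 9.3e-04) in double positive against endothelial cells on the same scale, while its TMM difference did not pass. Sdhb, the iron-sulphur subunit, had 142, 199 and 150.4 CPM in the endothelial pools, 162, 167 and 195 in the erythroid pools and 234 and 306 in the double positive pools. Its endothelial and erythroid values overlapped in CPM, and relative to the chain it was lower in erythroid cells (log2 difference -0.75, SE 0.16, edgeR adjusted p = 0.0049). The membrane anchors Sdhc and Sdhd were likewise lower relative to the chain in erythroid cells (Sdhc, log2 difference -0.80, SE 0.16, edgeR adjusted p = 0.0038, and Sdhd, log2 difference -0.76, SE 0.18, edgeR adjusted p = 0.0085). In double positive cells 3 of the 4 genes, Sdhb, Sdhc and Sdhd, were higher and 0 lower under TMM than in either other population. Beside this, 14.6% of all genes were higher than in endothelial and 31.5% higher than in erythroid cells. For Sdhb and Sdhc the log2 differences against endothelial cells were 0.72 and 0.63 (edgeR adjusted p = 0.035 and 0.042). Neither passed there without endothelial replicate 1 or 3, erythroid replicate 5 or either double positive replicate, and neither passed against erythroid cells without erythroid replicate 4 or double positive replicate 8. Sdhd had the widest difference, at 439.8 and 463 CPM against 134, 175 and 125 in endothelial and 146, 125 and 187 in erythroid libraries. Sdhd differed by 1.64 on the log2 scale, SE 0.21 (edgeR adjusted p = 1.0e-03) against endothelial cells.

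In complex III, 6 of 8 genes were higher when erythroid were set against endothelial cells under TMM and 0 lower (14.4% and 26.6% of all genes). The median was 0.84, and -0.70 by library size alone. All 8 were higher in double positive than in endothelial cells (median 1.22), beside 14.6% of all genes. Against erythroid cells, 3 were higher and 0 lower (31.5% and 10.6% of all genes). Uqcrq, a small subunit, was at 74.2, 71.4 and 54.9 CPM in the endothelial pools, 223, 197 and 181 in the erythroid pools and 246 and 262 in the double positive pools, and the 3 groups did not overlap. For Uqcrq the edgeR test gave a log2 difference of 1.58, SE 0.17 (adjusted p = 1.1e-04) between erythroid and endothelial cells. Uqcrc1, a core protein, had 276, 311 and 274 CPM in the endothelial pools, 489, 577 and 529.6 in the erythroid pools and 424 and 469.5 in the double positive pools. The erythroid values were the highest under TMM, and relative to the chain Uqcrc1 was lower in double positive than in erythroid cells (log2 difference -0.63, SE 0.13, edgeR adjusted p = 0.0052). By library size alone its log2 difference was -0.65 in erythroid against endothelial cells and 0.65 in double positive against erythroid cells. Uqcrb and Uqcr10 were the 2 that did not pass in erythroid cells under TMM, and both were lower there relative to the chain (Uqcrb, log2 difference -0.64, SE 0.14, edgeR adjusted p = 0.0051, and Uqcr10, log2 difference -0.60, SE 0.16, edgeR adjusted p = 0.015). Uqcrb shares near-identical stretches with 3 other genes, over up to 62.8% of its transcript, and overlaps an exon of another gene. The Rieske iron-sulphur protein Uqcrfs1 and the core protein Uqcrc2 followed the median, with TMM log2 differences of 0.75 and 0.99 in erythroid and 1.12 and 1.29 in double positive against endothelial cells. Both erythroid differences were negative by library size alone.

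In complex IV, 9 of 13 tested genes were higher when erythroid were set against endothelial cells under TMM and 0 lower (14.4% and 26.6% of all genes). The median was 0.81, and -0.74 by library size alone. In double positive cells 12 of 13 were higher than in endothelial cells (14.6% of all genes), with the largest median of the 5 complexes at 1.63. Against erythroid cells, 8 were higher and 1 lower (31.5% and 10.6% of all genes). Complex IV held 18.1 to 18.6% of the respiratory chain counts in the endothelial pools, 18.9 to 19.9% in the erythroid pools and 22.4 and 23.3% in the double positive pools, so both double positive libraries lay above the other 6.

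**Figure D3:**
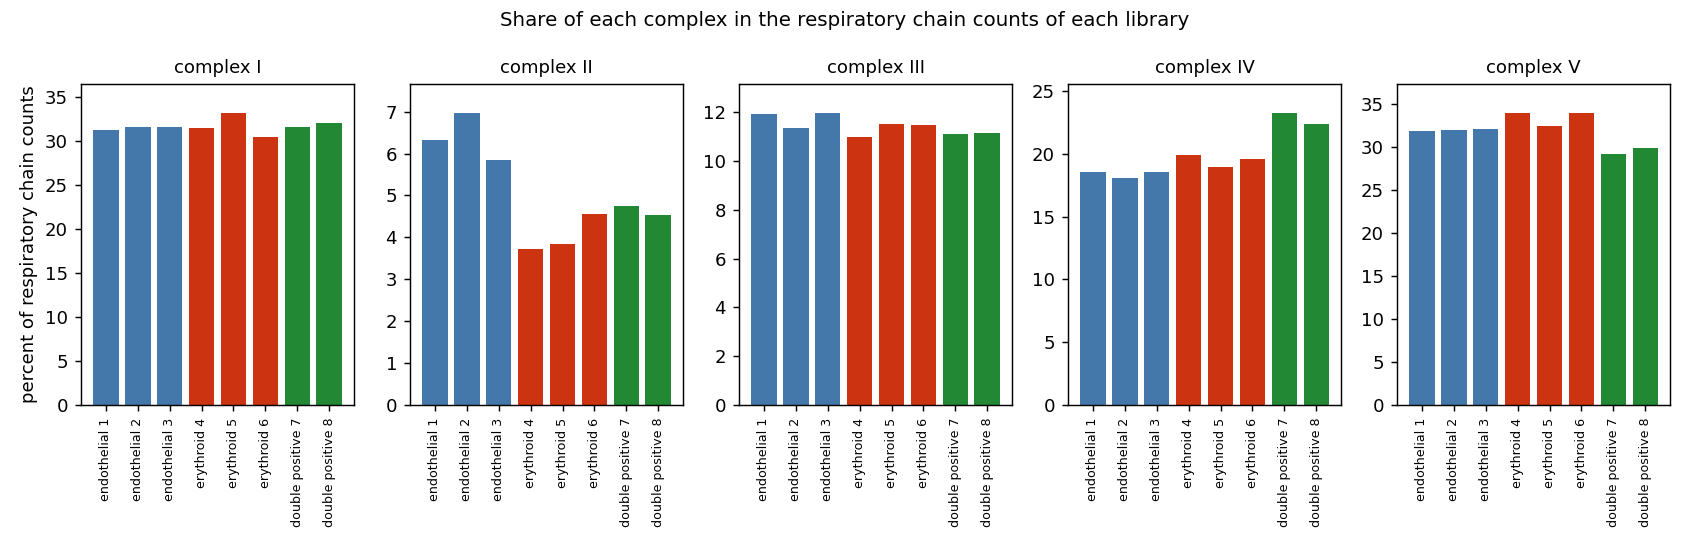
Percent of the respiratory chain counts held by each complex (panels, each with its own y axis from 0) in each of the 8 libraries (bars: blue endothelial, red erythroid, green double positive). Complex II is highest in the 3 endothelial libraries, at 5.84 to 6.97%, and complex IV in the 2 double positive libraries, at 22.4 and 23.3%.

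Cox5a, which takes part in the early assembly of the complex, was at 134, 147 and 133 CPM in the endothelial pools, 147, 139 and 145 in the erythroid pools and 502 and 482 in the double positive pools. The first 2 groups overlapped and both double positive libraries lay above every other library. The log2 difference of Cox5a was 1.83, SE 0.13 (edgeR adjusted p = 4.4e-05) against endothelial cells, and 1.41 (SE 0.14, edgeR adjusted p = 1.2e-04) against erythroid cells relative to the chain. Cox4i1, the common form of subunit 4, was at 399, 401 and 399.7 CPM in the endothelial pools, 464, 434 and 447 in the erythroid pools and 892 and 1034 in the double positive pools. Relative to the chain it was lower in erythroid than in endothelial cells (log2 difference -0.69, SE 0.10, edgeR adjusted p = 7.4e-04). The sign of the TMM difference of Cox4i1 and Cox5a in that comparison turned under DESeq2 and RLE factors. Cox6a1, the common form of subunit 6A, showed another order, with 241, 229 and 209 CPM in the endothelial pools, 749, 744 and 713 in the erythroid pools and 729.6 and 765 in the double positive pools. The last 2 groups overlapped, and both lay above the first. Cox6a1 differed by 1.70 on the log2 scale, SE 0.11 (edgeR adjusted p = 8.6e-06) between erythroid and endothelial cells. The remaining common subunits Cox5b, Cox6c, Cox7b, Cox7c and Cox8a had TMM log2 differences of 0.94, 1.29, 1.23, 0.81 and 0.81 in erythroid and of 1.60, 1.40, 1.63, 1.54 and 1.74 in double positive against endothelial cells, each past the edgeR test. Their erythroid differences were negative by library size alone.

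Of the 77 genes, 7 had a positive difference in erythroid against endothelial cells by library size alone too, and they were Ndufa6, Ndufb2, Ndufs6, Uqcrq, Cox6a1, Cox6b2 and Atp5e. Of these, Ndufa6 and Cox6b2 passed the test under that scaling. Over all 12136 genes tested, 1220 had a positive difference there and 3.46% passed as higher.

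The widest log2 differences were those of 2 isoform genes. Cox6b2 is known as the testis form of subunit 6B and Cox6b1 as the form of other tissues. Cox6b2 had 6, 13 and 20 counts in the endothelial, 820, 618 and 499 in the erythroid and 85 and 138 in the double positive libraries, or 0.793, 2.12 and 3.23, 191, 196 and 163 and 16.2 and 28.1 CPM. All erythroid libraries lay above the double positive ones, and these above the endothelial ones. For Cox6b2 the edgeR test gave a log2 difference of 6.50, SE 0.46 (adjusted p = 1.2e-05) between erythroid and endothelial cells, with differences of 3.45 between double positive and endothelial and -3.05 between double positive and erythroid cells. Per kb of transcript, Cox6b2 took 0.373, 0.921 and 1.77% of the Cox6b pair in the endothelial pools, 33.0, 35.0 and 32.7% in the erythroid pools and 2.50 and 3.94% in the double positive pools. Such a share does not depend on library scaling. Exact two-sided permutation tests between groups gave p = 0.1, the smallest that these group sizes allow, and 0.319 after adjustment over 51 tests.

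Cox7a1 is known as the heart and muscle form of subunit 7A and Cox7a2 as the form of other tissues. Cox7a1 had 8, 6 and 0 counts in the endothelial, 0, 0 and 0 in the erythroid and 98 and 138 in the double positive libraries. Taking 3 counts as the limit of a group at 0, it was at least 82.1-fold higher in double positive than in erythroid cells. Its edgeR adjusted p was 0.0053 in that comparison and 0.030 against endothelial cells. The latter did not pass without endothelial replicate 1 or 2 or without either double positive replicate. Cox7a1 made up 4.91 and 6.88% of the Cox7a family per kb in double positive libraries. The 5 muscle markers listed summed to 0 to 1.29 CPM in the 8 libraries. Cox7a2l, a family member that acts in supercomplex assembly, took 25.5, 21.1 and 30.3% in the endothelial pools, 20.4, 26.3 and 17.7% in the erythroid pools and 10.6 and 11.51% in the double positive pools. In CPM it overlapped between all 3 groups.

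**Figure D4:**
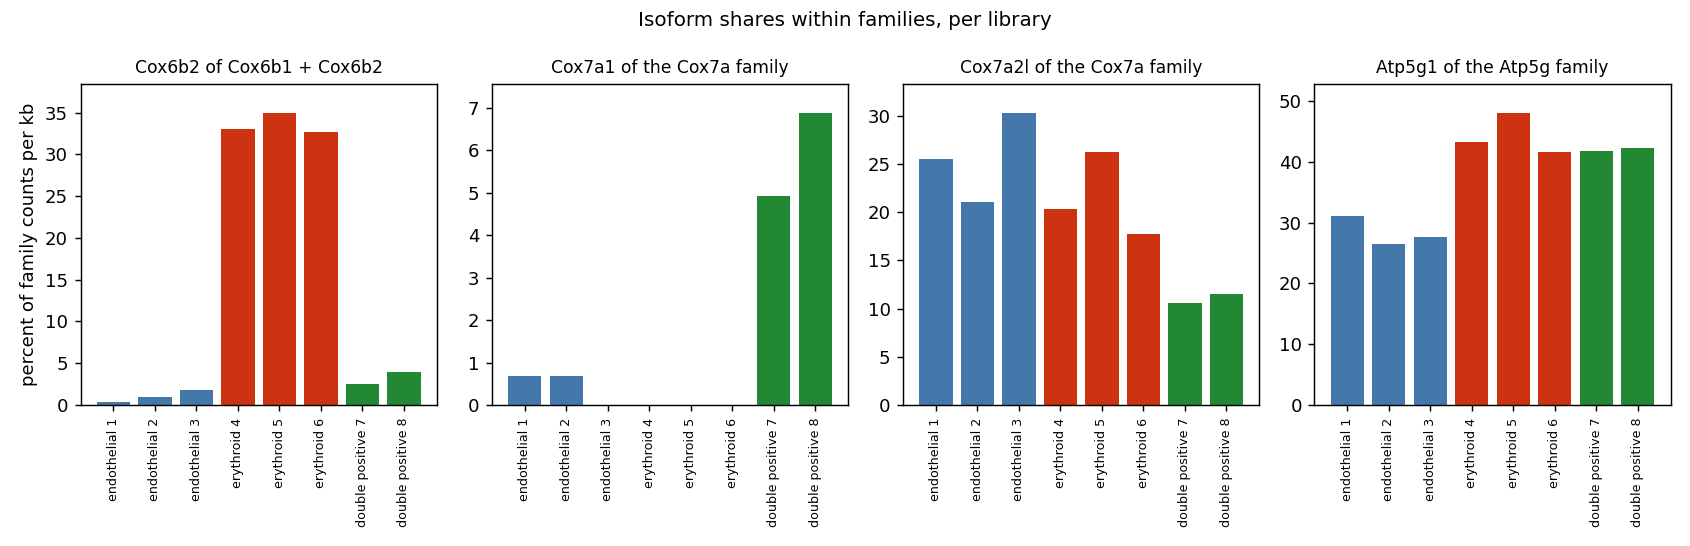
Share of 4 isoform genes in the counts per kb of their families (y axes, percent, each from 0) in each library (bars: blue endothelial, red erythroid, green double positive). Cox6b2 reaches 32.7 to 35.0% in the 3 erythroid libraries, and Cox7a1 has 4.91 and 6.88% in the double positive libraries and 0 in the erythroid libraries.

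The promoters of these 2 pairs are shown because Cox6b2 and Cox7a1 had the widest log2 differences of the 77 tested genes under TMM in each comparison. Each is the 250 bases before the RefSeq start (GRCm38.p6), 5′ to 3′ on the gene's strand, and capitals mark matches on either strand to 5 motifs, some of which may overlap. The motif of the GATA factors, known from blood and endothelial cells, was searched as AGATAA. For the ETS family, which has members in both, the letters were CCGGAAG. The box bound by NF-Y at many housekeeping genes was searched as CCAAT, and the site of the KLF family as CCNCNCCC. The motif of NRF1, a regulator of respiratory chain genes, was the fifth. They lie at chr7:30626115-30626364 (minus) for Cox6b1, chr7:4753095-4753344 (minus) for Cox6b2, chr9:79759854-79760103 (minus) for Cox7a2 and chr7:30183921-30184170 (plus) for Cox7a1.
Cox6b1: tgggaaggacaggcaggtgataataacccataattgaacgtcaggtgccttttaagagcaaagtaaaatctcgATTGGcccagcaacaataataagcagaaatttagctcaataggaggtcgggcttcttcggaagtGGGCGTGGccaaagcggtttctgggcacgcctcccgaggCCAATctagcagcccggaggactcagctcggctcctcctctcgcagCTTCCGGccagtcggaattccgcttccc
Cox6b2: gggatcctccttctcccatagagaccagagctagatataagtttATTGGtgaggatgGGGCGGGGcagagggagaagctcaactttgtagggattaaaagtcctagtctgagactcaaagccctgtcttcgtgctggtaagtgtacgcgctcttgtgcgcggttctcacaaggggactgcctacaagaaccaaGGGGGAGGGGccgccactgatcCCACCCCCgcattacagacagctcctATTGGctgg
Cox7a2: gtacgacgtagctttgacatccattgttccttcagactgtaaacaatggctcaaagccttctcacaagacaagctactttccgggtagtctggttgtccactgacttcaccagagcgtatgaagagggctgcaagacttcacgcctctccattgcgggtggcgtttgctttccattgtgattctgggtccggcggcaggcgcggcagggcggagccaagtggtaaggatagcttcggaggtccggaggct
Cox7a1: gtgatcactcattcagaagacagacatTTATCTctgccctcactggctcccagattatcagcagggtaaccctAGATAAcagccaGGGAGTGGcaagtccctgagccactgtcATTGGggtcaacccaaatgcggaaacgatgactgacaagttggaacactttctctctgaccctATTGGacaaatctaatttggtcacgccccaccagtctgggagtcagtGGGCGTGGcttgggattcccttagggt
In these windows Cox6b1 had 1 ETS, 2 NF-Y and 1 KLF match, Cox6b2 had 2 NF-Y and 4 KLF matches, Cox7a2 had none of the 5, and Cox7a1 had 2 GATA, 2 NF-Y and 2 KLF matches. Promoters were found for 69 members (75 promoters). The GATA motif stood in 8.0% of them and in 9.99% of all 32851 promoters. The other shares were 16.0% and 6.91% for the ETS motif, 18.7% and 3.74% for the NRF1 motif, 42.7% and 33.8% for the NF-Y motif, and 58.7% and 45.9% for the KLF motif. A match is a description of letters and not a bound site.

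In complex V, 13 of 17 genes were higher when erythroid were set against endothelial cells under TMM and 0 lower (14.4% and 26.6% of all genes). The median was 0.88, and -0.66 by library size alone. In double positive cells 15 were higher than in endothelial cells (median 1.12), beside 14.6% of all genes. Against erythroid cells, 6 were higher and 1 lower (31.5% and 10.6% of all genes). Per kb of transcript, Atp5b, the catalytic beta subunit, had the highest mean of complex V in erythroid cells, at 960.3 ± 38.0 CPM per kb (SD, n = 3). Its levels were 909, 894 and 869 CPM in the endothelial pools, 1892, 1757 and 1871 in the erythroid pools and 1509 and 1699.8 in the double positive pools. Relative to the chain, Atp5b and Atp5a1, the alpha subunit, were lower in double positive than in erythroid cells (Atp5b, log2 difference -0.57, SE 0.10, edgeR adjusted p = 0.0028, and Atp5a1, log2 difference -0.51, SE 0.12, edgeR adjusted p = 0.0099). The call for Atp5a1 did not pass without double positive replicate 8. The gamma subunit Atp5c1 went the other way, with 168, 216 and 191 CPM in the endothelial pools, 356, 302 and 353 in the erythroid pools and 641 and 731 in the double positive pools. Both double positive values were the highest, with a log2 difference of 1.03 (SE 0.16, edgeR adjusted p = 0.0010) against erythroid cells under TMM. Atp5e, the epsilon subunit, was at 128, 113 and 109 CPM in the endothelial pools, 376, 373 and 330.3 in the erythroid pools and 172 and 246 in the double positive pools. The 3 groups did not overlap, and the erythroid values were the highest. The log2 difference of Atp5e was -1.16, SE 0.17 (edgeR adjusted p = 8.7e-04) between double positive and erythroid cells relative to the chain, while under TMM the difference of -0.78 turned to 0.12 by library size alone.

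Subunit c, which forms the rotor ring, is made from 3 genes whose mature proteins are alike. Atp5g1 took 31.1, 26.5 and 27.6% of the 3 per kb in the endothelial pools, 43.2, 48.1 and 41.7% in the erythroid pools and 41.8 and 42.3% in the double positive pools. Atp5g2 took 31.0, 26.6 and 30.2%, 17.6, 14.2 and 19.4% and 21.0 and 22.1%, so endothelial libraries lay below the others for Atp5g1 and above them for Atp5g2. Atp5g3 took 37.9, 46.8 and 42.2%, 39.2, 37.7 and 38.9% and 37.2 and 35.6%, with erythroid and endothelial values that overlapped. For Atp5g1 and Atp5g2 the exact permutation p against endothelial cells was 0.1, or 0.319 after adjustment over the 51 tests. Atp5g1 and Atp5g2 share near-identical stretches with other genes, over 8.7% and 16.9% of their transcripts.

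Atp5s and Atp5sl were matched by name, and RefSeq now lists them as Dmac2l and Dmac2, so their place in complex V rests on the older symbols alone. They were the 2 lowest of the tested genes counted with complex V, at 13.6 ± 1.53 and 2.69 ± 1.27 CPM per kb in erythroid cells (SD, n = 3), and neither passed the TMM test in any comparison.

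The 6 genes that were not tested were Ndufs5, Cox4i2, Cox6a2, Cox7b2, Cox8b and Cox8c. Cox4i2, a form of subunit 4 known from lung, had 15 counts over the endothelial, 0 over the erythroid and 3 over the double positive libraries. Cox7b2 and Cox8c, known from testis, had 0 in all 8 libraries, and 3 counts would be 0.151 CPM in the endothelial, 0.285 in the erythroid and 0.296 in the double positive group. Ndufs5 had 1 count in all, so its level cannot be read here. A near-identical copy in another gene covers 46.9% of its transcript, and whether this lowers its counts was not tested. Among tested genes named above, such stretches also cover up to 45.1% of the transcript of Cox5b, 36.1% of Atp5c1 and 32.9% of Cox7c. They cover up to 31.3% of Cox6c, 24.1% of Cox7b and 17.8% of Cox7a2l. In all, 26 of the 83 genes share a near-identical stretch with another gene and 22 overlap an exon of another gene. Of the 45 with neither, 41 were tested. Under TMM 27 were higher and 0 lower in erythroid against endothelial cells (14.4% and 26.6% of all genes). In double positive cells 35 were higher and 0 lower than in endothelial cells (14.6% and 6.92% of all genes). Against erythroid cells, 17 were higher and 3 lower in double positive cells (31.5% and 10.6% of all genes).

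Genes outside the rule that belong to the chain or work with it were read from lists. Cyc1 encodes cytochrome c1 of complex III, and Cycs encodes cytochrome c. Both were higher in erythroid and double positive than in endothelial cells under TMM (14.4% and 14.6% of all genes). Both were lower in erythroid than in endothelial cells by library size alone (59.9% of all genes). Of 16 citric acid cycle genes, 9 were higher and 0 lower in erythroid against endothelial cells under TMM (14.4% and 26.6% of all genes). By library size alone 0 were higher and 9 lower (3.46% and 59.9% of all genes). Complex I assembly factors (13 tested) gave 2 higher and 1 lower in that comparison under TMM, and those of complexes II to V (28 tested) 6 higher and 2 lower, beside 14.4% higher and 26.6% lower of all genes. By library size alone the first gave 0 higher and 7 lower and the second 1 higher and 20 lower, beside 3.46% and 59.9%. One of the 6 higher under TMM was Cox17, the copper chaperone of complex IV, at 28.8, 44.3 and 42.5 CPM in endothelial and 233, 254 and 220.1 in erythroid libraries. Cox17 differed by 2.61 on the log2 scale, SE 0.22 (edgeR adjusted p = 3.1e-05) between erythroid and endothelial cells, and it was also higher relative to the chain.

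Atpif1, the inhibitor of ATP synthase, was at 206, 240.5 and 172 CPM in the endothelial pools, 1396, 1230.4 and 1287 in the erythroid pools and 767 and 879 in the double positive pools. For Atpif1 the edgeR test gave a log2 difference of 2.66, SE 0.15 (adjusted p = 4.1e-06) between erythroid and endothelial cells, and 1.82 (edgeR adjusted p = 6.5e-06) relative to the chain. Slc25a4, the heart and muscle form of the ADP/ATP carrier that exports the ATP, was at 296, 264 and 259.8 CPM in the endothelial pools, 5.36, 8.25 and 3.26 in the erythroid pools and 712 and 713 in the double positive pools. The log2 difference of Slc25a4 was -5.60, SE 0.27 (edgeR adjusted p = 2.0e-06) between erythroid and endothelial cells. Slc25a5, the carrier of most tissues, had 374, 509.8 and 362 CPM in the endothelial pools, 598, 532 and 633 in the erythroid pools and 687 and 682 in the double positive pools. Over the 8 libraries Slc25a5 ran from 362 to 687 CPM and Slc25a4 from 3.26 to 713 CPM.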

How the data were processed

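The authors deposited one table of raw read counts per gene for the 8 libraries, and per the submitters' processing notes reads were checked with FastQC and counted with HTSeq on mm10. Sources used here do not name the aligner, the annotation or a strand setting. Per the labels' protocols, cDNA was made with Smart-seq2 and 14 PCR cycles. Groups follow the sorting gates in the labels. Counts were tested with edgeR 4.0.16 (R 4.3.3): filterByExpr with a minimum count of 10, TMM factors, a quasi-likelihood fit with robust dispersion to all 8 libraries, one mean per gate, two-sided, with Benjamini-Hochberg adjustment over all 12136 tested genes and a threshold of 0.05. The SE of a log2 difference is its absolute value divided by the square root of the edgeR F statistic, so it includes the spread between pools. The script was tested on simulated counts. These had less spread between libraries than the data, so that test does not measure the rate of false or missed calls here. Results under TMM were recomputed with DESeq2 1.42.0 and limma-voom (limma 3.58.1), with RLE factors, with library size alone, without globin genes, with no filter, with a stricter filter (50 counts), on the 2 populations of a comparison alone, and without each library. Scaling to the summed respiratory chain counts was added after the data had been seen, and its calls were recomputed without complex V in the sum and without each library. Isoform shares were recomputed from raw counts and without each library. Exon lengths of the principal transcript came from GENCODE M21 (GRCm38), and near-identical stretches (95% over 100 bases) from BLAST 2.17.0. Promoters are from RefSeq. The members and lists were chosen with earlier results of these data known. Genes named were up to 3 with the smallest adjusted p per complex, direction and comparison, the 5 farthest from the median member, and fixed core and isoform genes, and some of those were left to the counts. One member of complex I is counted but its own values are not reported here.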

Additional observations from a re-analysis of the deposited data

How the results depend on the processing

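No paired analysis was run, because the labels number the pools serially across the gates and do not say which pools share embryos. Leaving out a double positive library leaves 1, which is then assumed to vary like the other groups. Depth limits the isoforms near 0 (Cox4i2, Cox6a2, Cox7b2, Cox8b, Cox8c). By library size alone, the respiratory chain genes called were 2 higher and 58 lower in erythroid against endothelial cells, 40 and 1 in double positive against endothelial cells, and 71 and 1 in double positive against erythroid cells. Under the same scaling the median log2 difference was -0.74 (all members), -0.71 (complex I), -1.46 (complex II), -0.70 (complex III), -0.74 (complex IV) and -0.66 (complex V) in erythroid against endothelial cells. It was 0.61 (all members), 0.50 (complex I), 0.033 (complex II), 0.58 (complex III), 0.99 (complex IV) and 0.47 (complex V) in double positive against endothelial cells. It was 1.28 (all members), 1.19 (complex I), 1.51 (complex II), 1.27 (complex III), 1.64 (complex IV) and 1.13 (complex V) in double positive against erythroid cells. With DESeq2 the median log2 difference was 0.63 (all members), 0.65 (complex I), 0.66 (complex III), 0.62 (complex IV) and 0.70 (complex V) in erythroid against endothelial cells. It was 1.12 (all members), 1.0001 (complex I), 1.08 (complex III) and 1.49 (complex IV) in double positive against endothelial cells. It was 0.42 (all members) in double positive against erythroid cells. With RLE factors the median log2 difference was 0.63 (all members), 0.65 (complex I), 0.66 (complex III), 0.62 (complex IV) and 0.69 (complex V) in erythroid against endothelial cells. It was 1.12 (all members), 0.9998 (complex I), 1.08 (complex III) and 1.49 (complex IV) in double positive against endothelial cells. It was 0.42 (all members) in double positive against erythroid cells. With only the 2 populations fitted the median log2 difference was 0.66 (all members), 0.68 (complex I), 0.69 (complex III) and 0.66 (complex IV) in erythroid against endothelial cells. With globin genes removed the median log2 difference was 0.76 (all members) in erythroid against endothelial cells. With no filter on low counts the median log2 difference was 0.87 (complex IV) in double positive against erythroid cells.

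Signs of single genes turned under some settings. By library size alone, the log2 difference in erythroid against endothelial cells turned to -0.72 for Atp5a1, -0.50 for Atp5b, -0.73 for Atp5c1, -0.31 for Atp5g1, -1.08 for Atp5g3, -0.36 for Atp5j2, -1.38 for Cox4i1, -1.49 for Cox5a, -0.60 for Cox5b, -0.74 for Cox6b1, -0.25 for Cox6c, -0.85 for Cox7a2, -1.22 for Cox7a2l, -0.31 for Cox7b, -0.74 for Cox7c, -0.74 for Cox8a, -0.31 for Cs, -1.35 for Ndufa4, -0.0091 for Ndufb9, -0.52 for Ndufs1, -0.44 for Ndufs7, -0.094 for Ndufv1, -1.19 for Sdha, -1.45 for Sdhb, -1.50 for Sdhc, -1.46 for Sdhd, -0.46 for Uqcr11, -0.65 for Uqcrc1, -0.56 for Uqcrc2 and -0.79 for Uqcrfs1. By library size alone, the log2 difference in double positive against endothelial cells turned to -0.47 for Cox7a2l, -0.20 for Ndufa8, -0.017 for Ndufc2 and -0.011 for Sdhc. By library size alone, the log2 difference in double positive against erythroid cells turned to 0.77 for Atp5a1, 0.71 for Atp5b, 0.12 for Atp5e, 0.74 for Cox7a2l, 0.46 for Ndufb7, 0.59 for Ndufs1, 0.34 for Ndufv1, 0.49 for Sdha and 0.65 for Uqcrc1. With DESeq2, the log2 difference in erythroid against endothelial cells turned to -0.022 for Cox4i1, -0.13 for Cox5a, -0.093 for Sdhb, -0.14 for Sdhc and -0.10 for Sdhd. With RLE factors, the log2 difference in erythroid against endothelial cells turned to -0.023 for Cox4i1, -0.13 for Cox5a, -0.093 for Sdhb, -0.14 for Sdhc and -0.10 for Sdhd. With only the 2 populations fitted, the log2 difference in erythroid against endothelial cells turned to -0.1 for Cox5a, -0.063 for Sdhb, -0.11 for Sdhc and -0.074 for Sdhd. With globin genes removed, the log2 difference in erythroid against endothelial cells turned to -0.011 for Sdhc. With a minimum count of 50, the log2 difference in double positive against erythroid cells turned to -0.024 for Cox6a1.

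Leaving out one library at a time gave the following ranges. In erythroid against endothelial cells the counts ran from 0 to 1 (genes lower). In double positive against endothelial cells the counts ran from 2 to 14 (genes higher relative to the chain) and from 1 to 9 (genes lower relative to the chain). In double positive against erythroid cells the counts ran from 17 to 31 (genes higher), from 6 to 17 (genes higher relative to the chain), from 1 to 4 (genes lower) and from 5 to 12 (genes lower relative to the chain). Median log2 differences in erythroid against endothelial cells ran from 0.73 to 0.88 (all members), from 0.69 to 0.88 (complex I) and from 0.71 to 0.88 (complex IV). Those of single genes in erythroid against endothelial cells ran from -0.01 to 0.096 (Cox5a), from -0.50 to 0.011 (Ndufs8), from -0.029 to 0.25 (Sdhb), from -0.067 to 0.10 (Sdhc) and from -0.12 to 0.23 (Sdhd). Median log2 differences in double positive against endothelial cells ran from 1.14 to 1.36 (all members), from 0.97 to 1.29 (complex I) and from 1.52 to 1.74 (complex IV). Those of single genes in double positive against endothelial cells ran from -0.35 to 0.086 (Atp5sl) and from -0.21 to 0.0086 (Sdha). Median log2 differences in double positive against erythroid cells ran from 0.29 to 0.44 (all members). limma-voom moved no count or median reported here, and leaving complex V out of the summed chain counts moved no call relative to the chain that is reported here. The cause of these changes was not tested.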

Other observations

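Among the 8 tested genes of the hypoxia response list, double positive set against erythroid cells gave 5 higher and 0 lower under TMM (31.5% and 10.6% of all genes), and 8 higher and 0 lower by library size alone (47.5% and 3.9%). Erythroid set against endothelial cells gave 1 higher and 3 lower under TMM (14.4% and 26.6% of all genes), and 0 higher and 7 lower by library size alone (3.46% and 59.9%). Ldha, lactate dehydrogenase A, was at 1126, 1061 and 967 CPM in the endothelial pools, 227, 235 and 279 in the erythroid pools and 1829.9 and 1162 in the double positive pools. Bnip3, a mitophagy receptor, was at 47.6, 32.1 and 23.4 CPM in the endothelial pools, 38.9, 45.1 and 65.9 in the erythroid pools and 562 and 359 in the double positive pools.

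Of 13 tested regulators of mitochondrial biogenesis, erythroid set against endothelial cells gave 2 higher and 1 lower under TMM. The share higher was near the 14.4% of all genes, of which 26.6% were lower. By library size alone 0 were higher and 6 lower, beside 3.46% and 59.9% of all genes. Nrf1, the transcription factor nuclear respiratory factor 1, was at 19.8, 31.0 and 36.0 CPM in the endothelial pools, 40.8, 62.8 and 64.9 in the erythroid pools and 10.9 and 11.2 in the double positive pools, and the 3 groups did not overlap. Its log2 difference between double positive and erythroid cells was -2.34 (edgeR adjusted p = 0.0017). Ppargc1a had counts in 1 of 3 endothelial, 0 of 3 erythroid and 2 of 2 double positive libraries, and did not pass the test. Cs, citrate synthase, was at 294, 381 and 318 CPM in erythroid libraries, against 131 to 155 CPM in the other 5 under TMM. Its log2 difference between erythroid and endothelial cells was 1.24 under TMM and turned to -0.31 by library size alone.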
